A study of Mus musculus with 18 samples.

Results

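Interferon response genes were followed in 18 metastases that AT3 cells, a mammary carcinoma line of the mouse, had formed in the lung. The set was chosen by name and holds 34 genes of 49585 gene identifiers in the deposited table. It comprises 5 transcription factors (Stat2, Irf1, Irf7, Irf8 and Irf9), 11 genes best known as targets of interferon gamma and 18 genes best known as targets of type I interferon. The gamma-type genes are Gbp2, Gbp3, Gbp5, Gbp6, Gbp7, Iigp1, Igtp, Irgm1, Irgm2, Socs1 and Ido1. The type I genes are Ifit1, Ifit2, Ifit3, Oasl2, Oas1a, Mx1, Mx2, Isg15, Usp18, Rsad2, Bst2, Xaf1, Ifi44, Ifi35, Zbp1, Ddx58, Ifih1 and Parp14.

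Per the labels, AT3 cells carrying GFP and mCherry formed tumours in the mammary fat pad and spread to the lungs without further intervention. All hosts were immunodeficient: the strain is given as Rag2-/-IL2rg-/-, while the growth protocol names Rag1-/-IL2rg-/-, so the hosts of both groups have no T, B or NK cells of their own. The NK transferred group (7 lesions of mice NK1 and NK2, with 3 and 4 lesions) received 60000 murine NK cells, activated in culture, by vein on day 11. The Ctrl group (11 lesions of mice KO1, KO2 and KO3, with 5, 4 and 2 lesions) received PBS. The letters KO are part of the mouse names and mark no further genotype in the labels. Ages are not given, and a host is the replicate because lesions of a mouse are not independent, which leaves 2 mice against 3. Fluorescent lesions were cut from frozen sections by laser, and 2 ng of total RNA of each was turned into a library with a kit for single-cell RNA. A lesion is written here as mouse and lesion number, so that NK1-3 is lesion 3 of mouse NK1.

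Type I interferons (alpha and beta) bind the receptor of Ifnar1 and Ifnar2 and act through Jak1 and Tyk2 on a STAT complex with Irf9 that binds a promoter element called ISRE. Interferon gamma, which NK cells and T cells release, binds the receptor of Ifngr1 and Ifngr2 and acts through Jak1 and Jak2 on a STAT dimer that binds an element called GAS. The target sets overlap, and factors induced by interferon, such as Irf1 and Irf7, bind ISRE and related elements themselves, so the division into type I and gamma-type genes is one of usage. In bulk RNA of a captured lesion, fewer cells of a type and less RNA per cell cannot be told apart.

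The promoters of the members held the letters of these elements as follows. Of the 34 members, 26 matched the RefSeq promoter table (GRCm38.p6), which covers 250 bases before to 50 bases after each start, in 31 windows; Gbp6, Ido1, Iigp1, Mx1, Mx2, Parp14, Usp18 and Zbp1 had no entry. The ISRE core was searched as GAAANNGAAA on both strands, and the GAS core as TTCNNNGAA, which reads the same on both strands. The ISRE letters were present in 8 of 8 gamma-type members (100%), in 8 of 13 type I members (61.5%) and in 1 of 5 transcription factors (20%), against 3.99% of all 27025 genes in the table. The GAS letters were present in 4 of the 8 gamma-type members (50%), 4 of the 13 type I members (30.8%) and 2 of the 5 factors (40%), against 9.55% of all genes. An ISRE match and a GAS match overlapped in 1 of the 26 members, Bst2, and in 23 of the 27025 genes. RefSeq starts can differ from those of the GENCODE annotation whose gene positions are given below, and the 250 bases before the start overlapped a GENCODE exon in 14 of the 31 windows. A match is a description of letters and shows neither binding nor activity.

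The 250 bases before the start of 4 members are printed 5′ to 3′ on the strand of the gene, with the matches in capitals, to show the letters in both groups of targets; none of these windows overlaps a GENCODE exon. Ifit3 and Isg15 are type I genes with 2 and 3 ISRE matches and 0 GAS matches. Gbp7 and Igtp are gamma-type genes, with 1 ISRE match each and with 2 GAS matches in Gbp7 and 1 in Igtp. The windows are chr19:34583279-34583528 (plus strand) for Ifit3, chr4:156200819-156201068 (minus strand) for Isg15, chr3:142530086-142530335 (plus strand) for Gbp7 and chr11:58199306-58199555 (plus strand) for Igtp.
Ifit3: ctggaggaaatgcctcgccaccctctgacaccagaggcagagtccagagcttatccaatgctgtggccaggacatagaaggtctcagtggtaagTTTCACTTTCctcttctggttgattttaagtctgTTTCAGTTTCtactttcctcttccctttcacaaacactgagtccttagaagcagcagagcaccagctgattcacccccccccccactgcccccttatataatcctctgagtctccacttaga
Isg15: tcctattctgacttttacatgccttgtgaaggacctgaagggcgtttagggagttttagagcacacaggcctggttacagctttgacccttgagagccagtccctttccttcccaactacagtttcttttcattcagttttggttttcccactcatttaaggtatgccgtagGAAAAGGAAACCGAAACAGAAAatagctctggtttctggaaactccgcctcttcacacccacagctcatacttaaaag
Gbp7: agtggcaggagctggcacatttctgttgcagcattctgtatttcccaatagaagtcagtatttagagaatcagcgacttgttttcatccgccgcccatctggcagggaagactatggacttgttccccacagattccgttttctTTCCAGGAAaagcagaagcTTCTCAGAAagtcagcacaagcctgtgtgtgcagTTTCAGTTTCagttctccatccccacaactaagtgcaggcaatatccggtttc
Igtp: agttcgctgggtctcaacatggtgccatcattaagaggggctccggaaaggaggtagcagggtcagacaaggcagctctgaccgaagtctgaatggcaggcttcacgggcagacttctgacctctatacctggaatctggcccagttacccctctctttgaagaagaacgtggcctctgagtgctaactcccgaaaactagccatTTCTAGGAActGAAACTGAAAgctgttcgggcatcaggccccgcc
In Isg15 the neighbouring ISRE matches share bases and form a single run of capitals. In Ifit3 and Gbp7 the ISRE letters lie in the opposite orientation, as TTTCNNTTTC, and the nearest of them begins 122 bases before the start in Ifit3 and 53 bases before it in Gbp7. In Igtp the GAS match begins 45 bases and the ISRE match 34 bases before the start.

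The libraries differed in depth and make-up. Total counts were 2964242 to 11798897 in NK lesions and 5690467 to 9816244 in Ctrl lesions, with 13432 to 19173 genes detected, and lesion NK1-3 was the lowest in both measures. Between 12.08% and 68.7% of a library's counts fell on mt-Rnr2, a mitochondrial ribosomal RNA, whose share was above 40% in all 3 lesions of NK1 and in KO1-2, KO1-5 and KO3-2. Scgb1a1, the secretoglobin that marks airway club cells, was above 1000 CPM (counts per 1000000 counts of the scaled library) in 7 lesions, with 21950 CPM in NK1-3, 15100 in KO3-1, 3938 in KO1-3, 2517 in KO1-2, 2440 in NK2-1, 1937 in KO1-1 and 1852 in NK1-1, while the other 11 lesions had at most 65.85 CPM. The summed level of 12 NK cell markers was 5.04 to 78.2 CPM (median 21.3) in NK lesions and 0.915 to 10.1 CPM (median 3.38) in Ctrl lesions, and Ncr1 was at 0 in 9 of 11 Ctrl lesions and in NK1-3. Of the 12 markers, 8 were at 0 in NK1-2, 9 in NK1-3 and 0 to 2 in the other NK lesions. In the Ctrl lesions, 2 were at 0 in KO1-3, 3 in KO1-1 and 7 to 10 in the others. The 10 T and B cell markers summed to 0.158 to 4.47 CPM in NK lesions (median 1.46) and 0 to 9.91 CPM in Ctrl lesions (median 2.15), with 5 to 10 of the 10 at 0 in a lesion, among them the T cell gene Cd3e in all 18. The epithelial keratin Krt18, 1 of 8 mammary epithelial markers, was detected in every lesion (19.56 to 174.1 CPM). Another of them, Epcam, was at 0 in KO3-2, and 0 to 2 of the 8 were at 0 in a lesion.

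In the comparison of NK with Ctrl mice, 33 of the 34 members passed the filter on low counts and 0 of them passed an adjusted p of 0.05 (edgeR quasi-likelihood test, counts summed per mouse, Benjamini-Hochberg over 16917 genes). The background is 0.0% of all genes called, and every tested member had an adjusted p of 0.9998. At an unadjusted p of 0.05, 0 of the 33 members were called in either direction, against 1.55% of all genes called as higher and 0.969% as lower. DESeq2 on the same sums called 21 genes in all and 0 members. The fitted log2 fold change (NK minus Ctrl) was above 0 in 25 of 33 members, against 48.3% of all genes tested, and its median was 0.31 over the members and -0.03 over all genes. Both NK mice lay above all 3 Ctrl mice in 5 members (all genes: 7.94%) and below all of them in 1 member (all genes: 6.86%). The member with the smallest p was Oasl2 (p = 0.0874, adjusted p = 0.9998, edgeR).

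With all lesions, the gamma-type genes had the larger median of fold changes; the order turned without mouse NK2 (0.24 against 0.49 for type I) and both medians were 0.53 without lesion NK1-1. Of 10 tested, 8 were above 0, with a median log2 fold change of 0.73 and a range of -0.57 (Gbp6) to 1.45 (Gbp5). Of the 18 type I genes, 15 were above 0, with a median of 0.25 and a range of -0.95 (Oasl2) to 1.15 (Mx2). Of the 5 transcription factors, 2 were above 0 and the median was -0.12. The standard errors of single members ran from 0.38 (Irf9 and Parp14) to 1.52 (Gbp5), and no member's fold change reached 2 of its standard errors. No difference between the gene groups was tested.

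**Figure D1:**
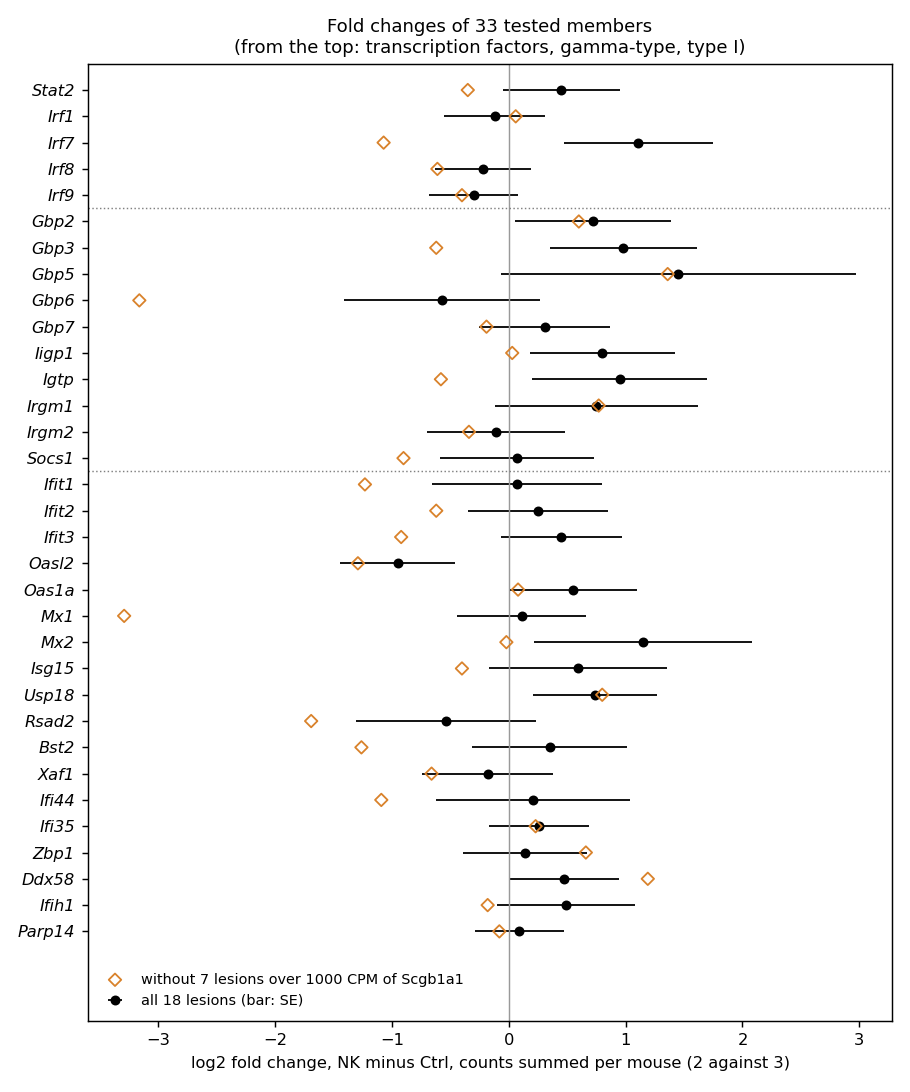
Log2 fold changes of the 33 tested members, NK minus Ctrl, from counts summed per mouse (2 NK mice, 3 Ctrl mice). Black points with bars are the fit on all 18 lesions with its SE, and open diamonds are the fit without the 7 lesions above 1000 CPM of Scgb1a1. With all lesions 25 of 33 points lie right of 0, and without those 7 lesions 10 of 33 do. The median over all genes tested was -0.03 with all lesions and -0.02 without those 7.

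The type I median hung on single lesions. It was 0.25 with all lesions, -0.11 without NK1-3, 0.07 without NK2-1 and 0.53 without NK1-1, and leaving out a whole mouse gave -0.08 (NK1) to 0.59 (KO2). Without NK1-3, 16 of 33 members were above 0, among them 7 of 18 type I and 8 of 10 gamma-type genes. Without NK2-1 it was 18 of 33. The median over all genes tested was -0.04 without NK1-3 and -0.03 without NK2-1. Without the 7 lesions rich in Scgb1a1, an alternative chosen after seeing the data, the median was -0.51 for type I genes, -0.27 for gamma-type genes and -0.40 for the transcription factors, and 10 of 33 members were above 0. The median over all genes tested was then -0.02. That fit holds all 5 mice, but NK1 is then lesion NK1-2 alone (65.3% mt-Rnr2) and KO3 is KO3-2 alone (44.05%). The gamma-type median was 0.64 without NK1-3 and 0.40 without NK2-1, and leaving out a whole mouse gave 0.24 (NK2) to 0.97 (KO2). Whether airway tissue in the captured area bears on the members' levels was not tested.

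The spread between lesions was wide for both target groups. The median SD of log2 CPM over the 18 lesions was 1.35 for the type I genes, 1.37 for the gamma-type genes, 0.69 for the transcription factors and 1.02 for all genes tested. It was smallest for Irf8 (0.61) and largest for Mx2 (2.29). Differences between mouse means made up a median of 22.6% of the variance of a type I gene, 29.6% of a gamma-type gene and 32.4% of a gene of the whole table. The rest lay between lesions of the same mouse and includes counting and library error. These shares are not corrected for the number of mice, so spread between lesions alone also raises them.

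Within a mouse, many members were highest in the same lesion. In NK2, lesion NK2-1 held the highest CPM of 31 of 33 members (all genes: 25.3%), among them all 10 gamma-type genes, all 5 factors and 16 of 18 type I genes. In NK1, lesion NK1-3 held the highest value of 24 of 33 members (all genes: 29.5%), with 14 of 18 type I and 6 of 10 gamma-type genes. Among the controls, KO1-2 held 17 of 33 (all genes: 20.9%), with 13 of 18 type I but 3 of 10 gamma-type genes. KO2-3 held 20 of 33 (all genes: 26.5%), with 12 of 18 type I and 6 of 10 gamma-type genes. KO3-1 held 21 of 33, a share close to that of all genes (61.1%). Over all 18 lesions, the highest value lay in NK1-3 for 15 of 33 members (all genes: 15.5%) and in NK2-1 for 5 of 33 (all genes: 1.41%).

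**Figure D2:**
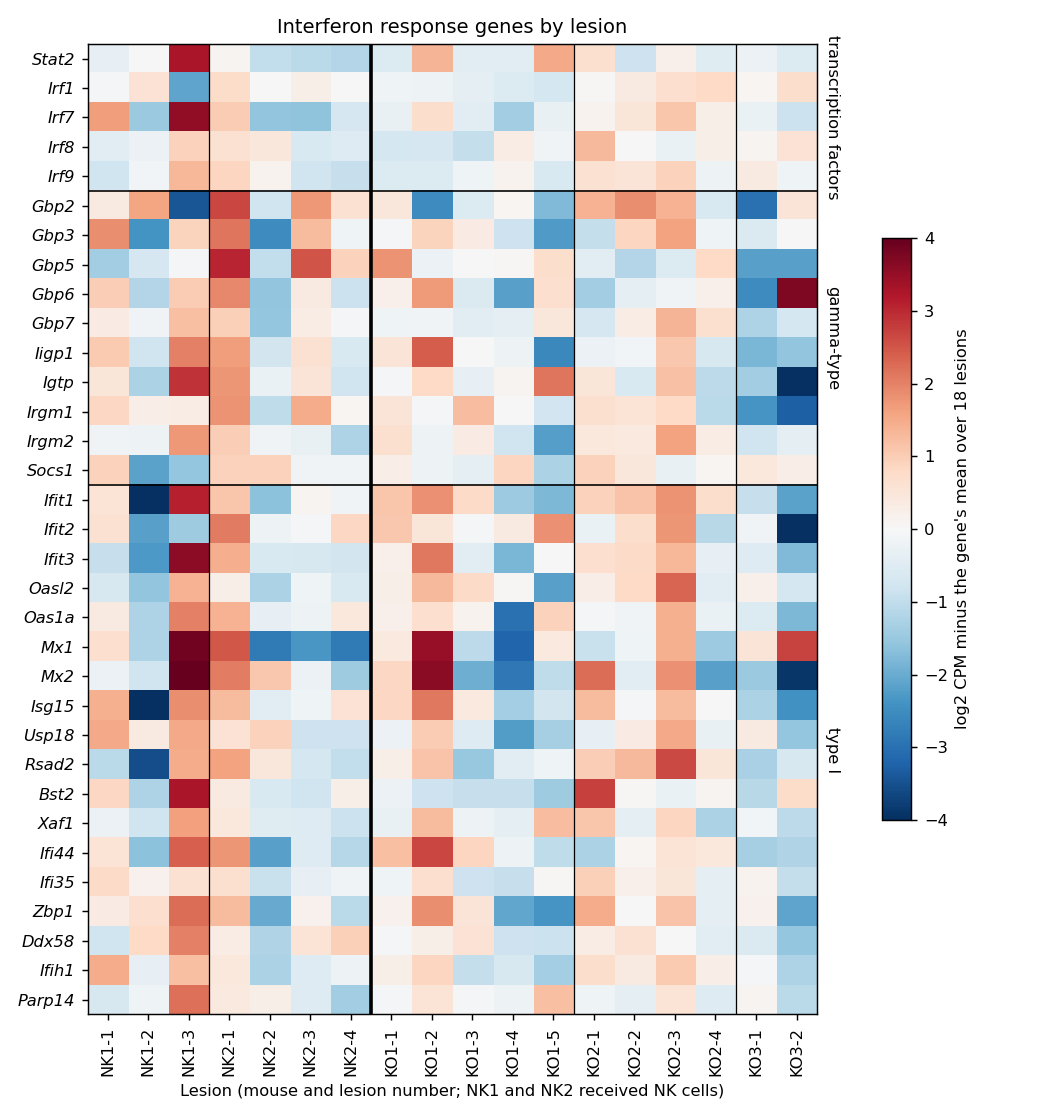
Log2 CPM of the 33 tested members (rows) in 18 lesions (columns), each row shown as the difference from its mean over all lesions, on a colour scale that ends at 4 log2 units below and above the mean. Thin vertical lines separate mice and the thick line separates NK (left) from Ctrl (right). Red columns stand out within mice, such as NK1-3, NK2-1, KO1-2 and KO2-3, in both treatment groups.

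The order of the lesions by type I genes differed in part from that by gamma-type genes. The mean log2 CPM of the 18 type I genes was 2.14 to 5.61 in NK lesions (median 3.08) and 2.13 to 4.89 in Ctrl lesions (median 3.26). The mean log2 CPM of the 10 gamma-type genes was 1.60 to 4.26 in NK lesions (median 2.96) and 0.92 to 3.26 in Ctrl lesions (median 2.42). The treatment groups overlapped in both. The highest type I means were 5.61 in NK1-3, 4.89 in KO1-2, 4.71 in KO2-3 and 4.60 in NK2-1. The highest gamma-type means were 4.26 in NK2-1, 3.30 in NK2-3 and 3.26 in KO2-3. NK1-3, first of 18 by type I genes, was at 2.96 by gamma-type genes (place 5). KO1-2, KO2-3 and NK2-1, the next 3 by type I genes, were at places 7, 3 and 1 by gamma-type genes. In NK1-3, Igtp and Irgm2 were the highest of all 18 lesions, while Gbp2 and Socs1 had 1 count each in this shallowest library. Gbp5 also had 1 count there, but its 0.7201 CPM was the median of NK lesions and above the Ctrl median (0.614 CPM). NK2-3, place 2 by gamma-type genes, was at 3.08 by type I genes (place 11). The type I mean exceeded the gamma-type mean by 2.65 in NK1-3, 2.18 in KO1-2 and 2.15 in KO3-1, and lay below it in NK2-3 alone of the 18 lesions (-0.22). The transcription factors spanned less, with 4.34 to 6.51 in NK lesions and 4.64 to 5.66 in Ctrl lesions.

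Marker values moved with these columns in part. Of the 4 lesions with the highest type I means, 3 had over 1000 CPM of Scgb1a1, but KO2-3 had 1.347 CPM, and KO3-1, with 15100 CPM, was at place 12 by type I genes. Of the 10 lung epithelial markers, the summed level was 26800 CPM in NK1-3, 6130 CPM in KO1-2, 4300 CPM in NK2-1 and 1420 CPM in KO2-3. The 12 macrophage markers summed to 141 CPM in NK1-3 and 186 CPM in KO1-2, the lowest of all lesions, and to 419 CPM in NK2-1 and 535 CPM in KO2-3. The 9 dendritic cell markers were also lowest in these lesions, with 4.32 CPM in NK1-3, where 6 of 9 were at 0, and 19.0 CPM in KO1-2. They summed to 48.9 CPM in NK2-1 and to 54.1 CPM in KO2-3. The NK cell markers summed to 78.2 CPM in NK1-1, 38.3 in NK2-3, 25.8 in NK2-1 and 5.04 in NK1-3, where 9 of 12 were at 0. The 10 neutrophil markers summed to 130 to 864 CPM in NK lesions (median 194) and 214 to 5460 CPM in Ctrl lesions (median 1080), and the 6 fibroblast markers to 474 to 7880 CPM (median 978, highest in NK1-1) and 125 to 812 CPM (median 501). The 5 red cell markers were highest in KO2-3 (9070 CPM), the 8 mammary epithelial markers in NK1-3 (868 CPM) and the 10 endothelial markers in KO2-1 (470 CPM). Of the 8 mammary epithelial markers, Epcam was at 14.78 to 93.61 CPM in the 7 lesions over 1000 CPM of Scgb1a1. In the other lesions Epcam was at most 9.604 CPM. Krt18 was at 59.05 CPM in NK1-3, against an NK median of 58.5 CPM. Whether the sum in NK1-3 comes from tumour or airway epithelium was not tested. The part of these cell types in the members' levels was not tested.

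**Figure D3:**
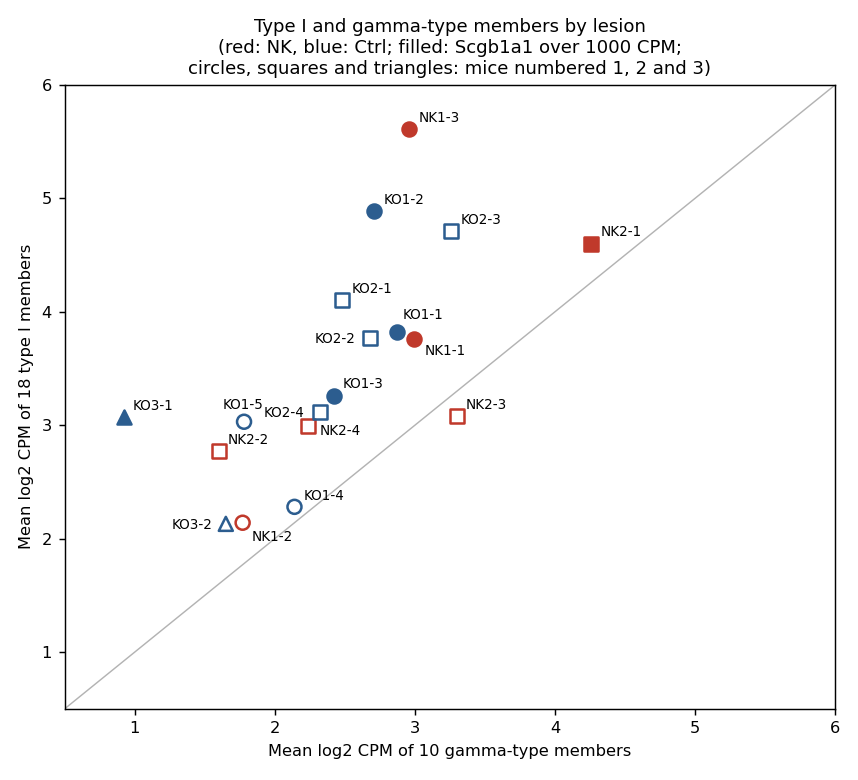
Mean log2 CPM of the 10 tested gamma-type members (x axis) against that of the 18 type I members (y axis), 1 point per lesion, red for NK and blue for Ctrl, with the grey line marking equal values. Points are filled where Scgb1a1 was above 1000 CPM. NK1-3 is highest on the y axis (5.61) and NK2-1 on the x axis (4.26), and only NK2-3 lies below the line.

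Among the transcription factors, Stat2 forms the complex with Irf9 that carries the type I signal to the ISRE. Stat2 (chromosome 10, 128270559 to 128292849) was at 23.26 to 514.9 CPM in NK lesions (median 42.27) and at 29.73 to 153.2 CPM in Ctrl lesions (median 39.47). The top value is NK1-3; the next NK lesion, NK2-1, had 57.39 CPM, and the groups overlap. By mouse Stat2 was 105.8 CPM in NK1 and 34.17 in NK2 against 55.68, 55.16 and 42.81 in KO1, KO2 and KO3, with a log2 fold change of 0.45 ± 0.50 (SE). Without mouse NK1 that fold change was -0.58.

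Irf7, the amplifier of type I interferon production, was the factor with the largest fold change. Irf7 (chromosome 7, 141262706 to 141266481) was at 4.506 to 169.2 CPM in NK lesions (median 8.782) and at 5.294 to 31.17 CPM in Ctrl lesions (median 11.87). Its high values were 169.2 CPM in NK1-3 and 45.58 CPM in NK1-1, so mouse NK1 (51.01 CPM) stood above NK2 (12.10 CPM) and the Ctrl mice (10.70 to 21.96 CPM). This gave a log2 fold change of 1.11 ± 0.64 (edgeR p = 0.125, adjusted p = 0.9998) and one of -0.27 without mouse NK1. Irf7 overlaps Phrf1 on the other strand, and how the counting used strand is not stated, so reads of the pair may not be separable.

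Irf1, a factor induced early by interferon gamma, went the other way in NK1-3. Irf1 (chromosome 11, 53770014 to 53778374) was at 5.041 to 37.43 CPM in NK lesions (median 22.39) and at 13.72 to 38.87 CPM in Ctrl lesions (median 23.03). The lowest of all 18 lesions was NK1-3 (7 counts), the same lesion that was highest for Stat2 and Irf7, and the highest NK lesion was NK2-1. Between the groups the log2 fold change was -0.12 ± 0.43.

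Irf8, which governs dendritic cell and macrophage development, and Irf9, the DNA-binding partner of the type I complex, varied less. Irf8 was at 30.38 to 87.85 CPM in NK lesions and at 24.22 to 115 CPM in Ctrl lesions, with a log2 fold change of -0.22 ± 0.41. Irf9 was at 32.51 to 154.1 CPM in NK lesions and at 39.79 to 115.4 CPM in Ctrl lesions, with a log2 fold change of -0.30 ± 0.38. For both, the NK and Ctrl lesions overlapped, and the highest lesion was KO2-1 for Irf8 and NK1-3 for Irf9. Other annotated genes overlap Irf1, Ifi35, Usp18 and Gbp2 on the opposite strand and Irf8, Irf9, Gbp6 and Gbp7 on the same strand, so the levels of these members may hold reads of their neighbours.

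The gamma-type genes are mostly GTPases that act on vacuoles of intracellular pathogens. Gbp2, Gbp3, Gbp5 and Gbp7 code for guanylate-binding proteins and lie side by side on chromosome 3, between 142493978 and 142638008. Gbp2 was the highest gamma-type gene per length, with a median of 5.23 CPM per kb of exon, and Gbp5 the lowest tested, with 0.1005 CPM per kb.

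Gbp2 (142620602 to 142638008) was at 0.7201 to 64.45 CPM in NK lesions (median 15.18) and at 1.055 to 36.63 CPM in Ctrl lesions (median 10.47). It was highest in NK2-1 (64.45 CPM) and NK2-3 (33.07 CPM) among NK lesions and lowest of all in NK1-3, where Stat2 and Ifit3 were highest. The value in NK1-3 rests on 1 count in the shallowest library. KO3-1 (1.055 CPM) and KO1-2 (1.535 CPM), also rich in Scgb1a1, were the next lowest, while NK2-1, with 2440 CPM of Scgb1a1, was the highest. NK2-1 alone gave 48.2% of its NK counts, and its log2 fold change was 0.72 ± 0.67.

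Gbp5, an activator of the inflammasome, had few counts. Gbp5 (142493978 to 142522344) was at 0.1577 to 7.938 CPM in NK lesions (median 0.7201) and at 0 to 3.214 CPM in Ctrl lesions (median 0.6140), with NK2-1 (7.938 CPM) and NK2-3 (5.378 CPM) above every Ctrl lesion and both lesions of KO3 at 0. By mouse it was 0.2855 CPM in NK1 and 3.836 CPM in NK2 against 1.531, 0.7021 and 0 CPM in the Ctrl mice, so the NK mice stood on either side of KO1 and KO2. The log2 fold change was 1.45 ± 1.52, and -1.40 without NK2.

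Gbp3 was among the members whose NK mice both stood above all Ctrl mice, with 7.899 and 6.263 CPM in NK1 and NK2 against 3.174, 5.134 and 2.436 CPM. Its lesions still overlapped, with 0.3483 to 14.20 CPM in NK and 0.4573 to 9.702 CPM in Ctrl, and its log2 fold change was 0.98 ± 0.63. Gbp7 had 3.691 to 25.92 CPM in NK and 4.614 to 28.93 CPM in Ctrl lesions and a log2 fold change of 0.31 ± 0.56. Gbp6, on chromosome 5, rested on a Ctrl lesion: KO3-2 had 66.80 CPM while the highest of the other Ctrl lesions, KO1-2, had 16.27 CPM. Its log2 fold change was -0.57 ± 0.84 and became 1.23 without KO3-2.

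The immunity-related GTPases were, like the Gbp genes, highest in NK2-1 among the lesions of NK2. Iigp1 (Irga6) was at 11.37 to 80.65 CPM in NK lesions and at 3.201 to 107.5 CPM in Ctrl lesions, and its mice did not overlap, with 38.26 and 30.47 CPM in the NK mice against 29.37, 23.56 and 6.090 CPM. The gap between NK2 and KO1 was small next to the spread of lesions, and the log2 fold change was 0.80 ± 0.62. Igtp (Irgm3) likewise had 10.09 and 8.314 CPM in the NK mice against 6.515, 6.428 and 1.218 CPM in the Ctrl mice, with a log2 fold change of 0.95 ± 0.75. Igtp overlaps Irgm2 on the same strand, so reads of the pair can be shared out between them.

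Irgm1 (chromosome 11, 48861968 to 48871683), a regulator of the other GTPases of the family, was at 3.065 to 22.79 CPM in NK lesions (median 7.921) and at 0.4721 to 15.14 CPM in Ctrl lesions (median 6.444). NK2-1 (22.79 CPM) and NK2-3 (18.17 CPM) stood above every Ctrl lesion, and the lesions of KO3 (1.055 and 0.4721 CPM) stood below every other lesion. Irgm1 gave a log2 fold change of 0.75 ± 0.87. Irgm2 gave -0.11 ± 0.59.

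**Figure D4:**
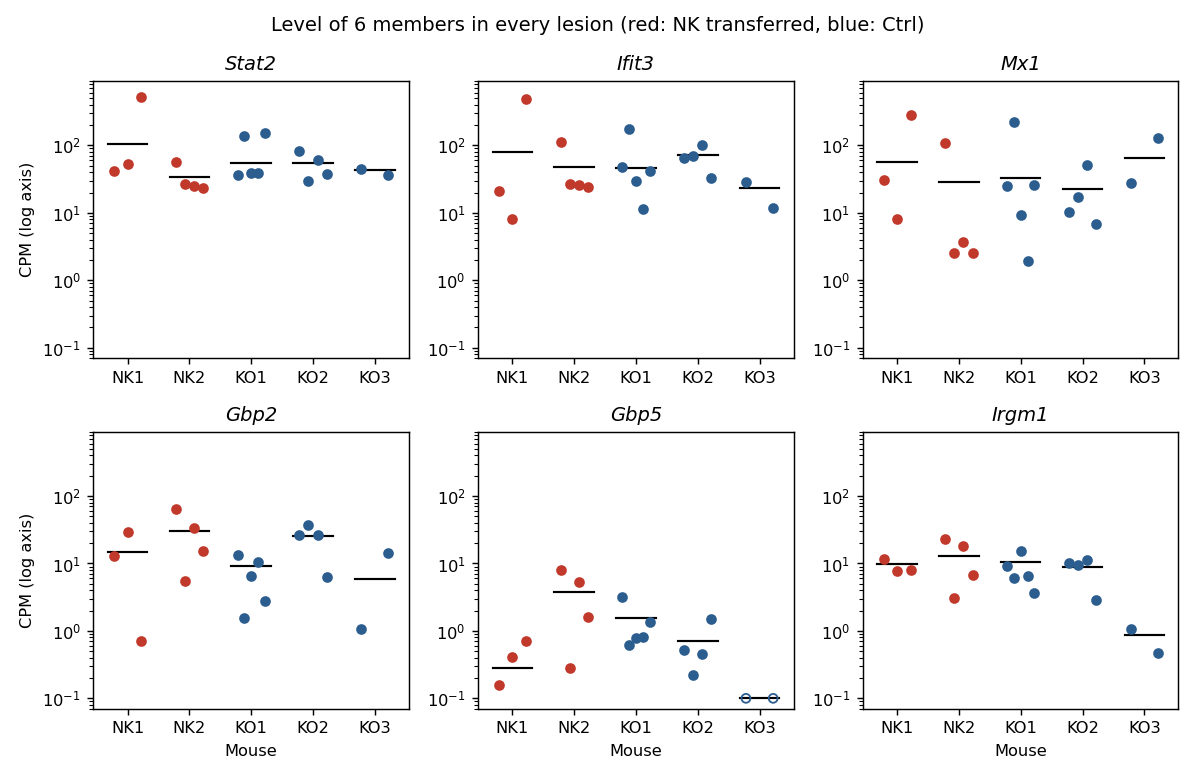
CPM of 6 members on a log axis in every lesion, by mouse, red for NK and blue for Ctrl, with a black line at the CPM of the summed counts of the mouse. Open points for Gbp5 in KO3 stand for 0 and are drawn at the foot of the axis. NK1-3 is the top point of NK1 for Stat2 (514.9 CPM), Ifit3 (488.9 CPM) and Mx1 (279.4 CPM) and the bottom one for Gbp2 (0.7201 CPM, 1 count).

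Socs1, the feedback inhibitor of JAK kinases, was at 0.4059 to 4.952 CPM in NK lesions and 0.9146 to 4.965 CPM in Ctrl lesions, with a log2 fold change of 0.07 ± 0.66. Ido1, the tryptophan-degrading enzyme that interferon gamma induces, did not pass the filter. It had 10 counts in NK lesions, 9 of them in NK2-1, and 1 count in Ctrl lesions. The ratio of the rates was 14.1, with an exact 95% interval of 2.0 to 611 that covers counting error only and not the difference between mice.

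Among the type I genes, the Ifit genes code for proteins that bind foreign RNA and lie in 1 cluster on chromosome 19. Ifit3 (34583531 to 34588731) was at 8.118 to 488.9 CPM in NK lesions (median 25.95) and at 11.39 to 177.1 CPM in Ctrl lesions (median 41.62). The high lesions were NK1-3 (488.9 CPM), KO1-2 (177.1 CPM), NK2-1 (110.8 CPM) and KO2-3 (102.0 CPM), and the remaining NK lesions, at 8.118 to 26.47 CPM, all lay below the Ctrl median. The log2 fold change was 0.45 ± 0.52 and was -0.50 without NK1-3. RSEM gave Ifit3 a fractional count in 17 of 18 lesions, as it does where reads also fit near-identical copies, so its level is uncertain.

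Ifit1 had 0 to 61.21 CPM in NK lesions and 1.416 to 25.48 CPM in Ctrl lesions, again with NK1-3 highest and NK1-2, of the same mouse, at 0. Its log2 fold change was 0.07 ± 0.73. Ifit2 was different in NK1-3, where it had 2.880 CPM (4 counts), and was highest in NK2-1 (34.59 CPM) and KO1-5 (29.27 CPM). Its log2 fold change was 0.25 ± 0.60.

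Mx1 and Mx2, genes of the dynamin-like GTPase family, spread most. Mx1 (chromosome 16, 97447035 to 97462907) was at 2.507 to 279.4 CPM in NK lesions (median 8.118) and at 1.956 to 219.5 CPM in Ctrl lesions (median 25.13). In each of NK1, NK2, KO1 and KO3 a single lesion was far above the others, with 279.4 CPM in NK1-3, 108.4 in NK2-1, 219.5 in KO1-2 and 127.9 in KO3-2. NK2-1 alone gave 67.0% of the NK counts of Mx1, whose log2 fold change was 0.11 ± 0.55. Without the 7 lesions rich in Scgb1a1 it was -3.29; KO3-2 is then the only lesion of its mouse. Mx2 was at 0.9887 to 93.61 CPM in NK lesions and 0 to 38.68 CPM in Ctrl lesions, with a log2 fold change of 1.15 ± 0.93 that was -0.13 without NK1-3.

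Oasl2 and Oas1a belong to the family of oligoadenylate synthetases, which sense double-stranded RNA. Oasl2 (chromosome 5, 114896936 to 114912234) was the member whose NK mice both lay below all Ctrl mice. In NK lesions it was at 4.871 to 39.60 CPM (median 9.771) and in Ctrl lesions at 3.201 to 76.63 CPM (median 17.72), so the lesions overlapped. By mouse it was 12.18 and 12.17 CPM in NK1 and NK2 and 21.52, 34.14 and 14.70 CPM in KO1, KO2 and KO3, a mean of 12.17 ± 0.009334 CPM (SD, n = 2 mice) against 23.45 ± 9.860 CPM (n = 3). The log2 fold change was -0.95 ± 0.49 and kept its direction in all 32 alternatives, which reuse the same mice. Oas1a pointed the other way, with 11.13 and 11.72 CPM in the NK mice against 7.963, 11.08 and 4.263 CPM and a log2 fold change of 0.55 ± 0.55; NK1 and KO2 differed by far less than lesions of a mouse did. All 18 lesions held a fractional count of Oas1a, which has close copies.

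Isg15 codes for a ubiquitin-like modifier and Usp18 for the protease that removes it. Isg15 (chromosome 4, 156199424 to 156200818) was at 0 to 18 CPM in NK lesions (median 7.270) and at 0.7081 to 21.18 CPM in Ctrl lesions (median 4.744), highest in KO1-2 and at 0 in NK1-2, with a log2 fold change of 0.59 ± 0.76. Usp18 was at 5.160 to 27.44 CPM in NK lesions (median 13.98) and at 1.841 to 27.40 CPM in Ctrl lesions (median 7.658). NK1-1 (27.44 CPM) and NK1-3 (27.36 CPM) matched KO2-3 (27.40 CPM), and the log2 fold change was 0.74 ± 0.53 (edgeR p = 0.203, adjusted p = 0.9998).

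Rsad2 codes for viperin, an antiviral enzyme, and Bst2 for tetherin, which holds budding virions at the cell surface. Rsad2 (chromosome 12, 26442746 to 26456452) was at 2.841 to 109.0 CPM in NK lesions (median 21.88) and at 12.42 to 225.2 CPM in Ctrl lesions (median 42.07), with KO2-3 highest. Its log2 fold change was -0.54 ± 0.77 and was 0.58 without mouse KO2. Bst2 was at 8.930 to 208.1 CPM in NK lesions and 7.774 to 141.3 CPM in Ctrl lesions. Each group had 1 lesion far above the rest, NK1-3 and KO2-1, and KO2-1 gave 52.6% of the Ctrl counts. The log2 fold change of Bst2 was 0.35 ± 0.66.

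The RNA sensors among the members are Ddx58 (RIG-I), Ifih1 (MDA5) and Zbp1, a sensor of Z-form nucleic acid. Ddx58 (chromosome 4, 40203773 to 40239828) was at 5.642 to 54.73 CPM in NK lesions (median 19.77) and at 4.484 to 20.63 CPM in Ctrl lesions (median 12.56). NK1-3 (54.73 CPM), NK2-4 (26.00 CPM) and NK1-2 (23.54 CPM) stood above every Ctrl lesion, while NK2-2 and NK1-1 were low in the Ctrl range. By mouse Ddx58 was 17.32 and 18.34 CPM in the NK mice and 14.56, 16.28 and 7.569 CPM in the Ctrl mice, with a log2 fold change of 0.47 ± 0.47 that was 1.19 without the 7 lesions rich in Scgb1a1. Ifih1 gave 0.49 ± 0.59, with NK1 at 19.03 CPM and NK2 at 7.529 CPM, and Zbp1 gave 0.14 ± 0.53.

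The remaining type I genes had log2 fold changes near 0. Parp14, an ADP-ribosyltransferase, gave 0.09 ± 0.38 and was highest in NK1-3 (115.9 CPM, against a median of 22.33 CPM in NK lesions). Ifi35 gave 0.26 ± 0.43 and was the type I gene that spread least over lesions (SD 0.62 on the log2 scale). Ifi44 gave 0.21 ± 0.83 and Xaf1 gave -0.18 ± 0.56. Per length, Bst2 (median 19.98 CPM per kb), Ifit3 (17.80) and Ifi35 (16.21) had the highest levels of the type I genes, and Ifi44 (0.4641) the lowest.

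The rest of the pathway was read from 5 further lists, in each of which 0 genes passed an adjusted p of 0.05 (edgeR; all genes: 0.0%). At an unadjusted p of 0.05, 1 of 22 tested gamma-type targets was called as higher, Gbp11. The lists with 1, 11, 16 and 27 tested genes held 0 such genes. Of all genes, 1.55% were called as higher and 0.969% as lower, so the count does not mark the pathway. Of 10 interferon genes that matched the table, 5 had 0 counts, and all 10 together had 53 counts in 18 lesions. Ifng had 4 counts in 3 NK lesions and 1 count in 1 Ctrl lesion, and Ifnb1 had 5 counts in 2 NK lesions and 0 in Ctrl lesions, which allows 3 counts over the Ctrl group. That limit covers counting error only, both ligands fell short of the filter, and neither was tested. The only ligand gene tested, Ifnk, gave -0.84 ± 1.81.

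The receptors and their kinases were well covered, and 4 of 11 had a log2 fold change above 0 (median -0.24). Ifnar1 was at 82.58 ± 21.58 CPM (SD, n = 2 mice) and 79.53 ± 5.693 CPM (n = 3), a log2 fold change of 0.05 ± 0.36. Ifngr1 was at 104.7 ± 10.99 and 144.5 ± 49.45 CPM (-0.46 ± 0.42), and Ifngr2 at 39.28 ± 9.583 and 33.11 ± 5.156 CPM (0.25 ± 0.38). Ifnar2 gave -1.03 ± 0.65, with 386.6 CPM in KO3-2 and 181.8 CPM in mouse KO3 against 41.23 to 55.20 CPM in the other 4 mice. The kinases Jak1, Jak2 and Tyk2 gave -0.09 ± 0.35, -0.26 ± 0.43 and -0.24 ± 0.48. None of these receptor or kinase differences exceeded 2 of its standard errors.

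Other targets of both interferons were counted in the same way. Of 22 tested gamma-type targets outside the set, 16 were above 0 with a median of 0.38, and of 27 tested type I targets 12 were above 0 with a median of -0.05. Among the gamma-type targets, Gbp11 gave 5.38 ± 1.63 (edgeR p = 0.0110, adjusted p = 0.9998), with 50 of its 62 NK counts in NK1-1. Ctrl lesions held 6 counts of Gbp11, so it passed the filter on low counts through the NK mice alone. Its fold change and p are therefore no support for a difference. Tgtp2, another GTPase of this class, gave 1.95 ± 0.92, with 4.663 and 1.356 CPM in the NK mice and 0.6090 to 0.9873 CPM in the Ctrl mice. Cxcl9, a chemokine for T and NK cells, gave 3.45 ± 1.89, with 7.101 CPM in NK2 and 0.09517 CPM in NK1. On the type I side, Cmpk2 gave -1.33 ± 0.74 and Samhd1 -0.98 ± 0.61. Of 16 genes for nucleic acid sensing, 7 were above 0 (median -0.06), with Cgas at -1.43 ± 0.70 and Dhx58 at -0.88 ± 0.53.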

How the data were processed

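RNA was measured in 18 lesions. The submitters' processing notes name bcl2fastq 2.17, STAR, RSEM 1.2.28 and DESeq2 as tools and mm10 as the build; settings and strand are not stated there. The deposited table holds expected counts, the estimated counts per gene that RSEM gives, unscaled by the authors, and they were rounded to whole numbers ahead of testing. The other deposited table gives values on what their range shows to be a log2 scale, normalized by the authors in a way not stated, and was an alternative only. There were 0 further columns of sample values.

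Counts were summed per mouse, because lesions of a mouse are not independent, and the NK and Ctrl mice (2 against 3) were set against each other by edgeR 4.0.16 in R 4.3.3, with TMM scaling and a robust quasi-likelihood fit. The filter filterByExpr (minimum count 10, minimum total 15) kept 16917 genes, and Benjamini-Hochberg adjustment ran over all of them and calls were made at 0.05. Standard errors of log2 fold changes were taken from the F statistic (the absolute fold change over the root of F). The spread shared between genes was wide (a coefficient of variation of 64.9%), and p-values measure only the spread between these mice.

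CPM are counts per 1000000 counts of the TMM-scaled library, with scaling over lesions for values by lesion and over mice for values by mouse, so the 2 kinds are not on exactly one scale. Log2 CPM used a prior count of 2, and a group mean over genes is the mean of their log2 CPM. Genes were placed by GENCODE M21, with 1-based positions on GRCm38 (mm10), and promoter sequences are from RefSeq (GRCm38.p6). Levels per kb divide by the exonic length of all transcripts of a gene.

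The members and all lists were chosen with earlier results of these data known. All 34 members are named. Of the pathway lists, Ifng, Ifnb1, the receptor chains and Jak1, Jak2 and Tyk2 are always named, with the 4 genes of smallest p in each direction; Ifnk is named beside them as the only ligand gene tested. Of the pathway genes that this rule names, 1 is not reported here. Of the marker lists only summed levels and defining genes are given. Alternatives were another scaling (size factors of the RLE method), no filter, no mitochondrial ribosomal genes, DESeq2 1.42.0, limma 3.58.1 with voom on lesions and the mouse as a random factor (correlation 0.206), the deposited normalized table, a block for the mouse number, each mouse and each lesion left out, and 2 added after seeing the data: without the lesions above 1000 CPM of Scgb1a1 and without those above 40% mt-Rnr2.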

Additional observations from a re-analysis of the deposited data

Results flagged for a closer look

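Of 36 values checked over the 7 NK lesions (each tested member and each group mean, on the log2 CPM scale), 3 had 1 lesion whose gap to the next exceeded Dixon's 95% critical share of the whole range for 7 values. Chance flags about 1 in 20 series of independent values, but these 7 lesions come from 2 mice, so that rate need not hold here. The members also share the lesions, so the 3 flags are not independent. Stat2 was at a log2 CPM of 9.01 in NK1-3, where the next lesion was at 5.85. Irf1 was at 2.39 (7 counts) in the same lesion, the lowest, where the next was at 4.44. Isg15 was at -2.21 in NK1-2, which held 0 counts of it, and the next lesion was at 1.91. NK1-3 has the smallest total count of the 18 lesions and the highest Scgb1a1, and the part of either in the Stat2 and Irf1 values was not tested.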

How the results depend on the processing

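The count of members past the threshold was 0 in the main fit and in all 32 alternatives, 23 of them with a single mouse or lesion removed, and the smallest adjusted p of a member in any of them was 0.5859. The number of genes past the threshold in the whole table was 0 in the main fit, 21 with DESeq2, 224 without a filter on low counts and 7 with the replicate block, and 0 to 4 with a mouse or lesion left out (4 without mouse NK2). Without mouse NK2 the median over all genes was -0.16. Where a fit leaves 1 NK mouse, that mouse is assumed to vary like the Ctrl mice.

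Without the 7 lesions above 1000 CPM of Scgb1a1, the gamma-type median was -0.27 and the type I median -0.51. Of 1056 fold changes of single members under an alternative, 952 kept the direction of the main fit and 104 did not. The members Ddx58, Gbp2, Iigp1, Irgm1, Oas1a and Oasl2 (6 in all) kept it in every alternative that tested them, and 27 lost it at least once. The alternatives reuse the same mice and are not independent. No share of all genes is set beside these counts, so they do not mark these members as steadier than other genes. All 33 members were short of the threshold throughout, so a change of sign is a change within the error.

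Without the Scgb1a1-rich lesions the log2 fold changes of opposite sign were Stat2 -0.35, Irf1 0.06, Irf7 -1.07, Gbp3 -0.62, Gbp7 -0.19, Igtp -0.58, Socs1 -0.90, Ifit1 -1.23, Ifit2 -0.62, Ifit3 -0.92, Mx1 -3.29, Mx2 -0.02, Isg15 -0.40, Bst2 -1.26, Ifi44 -1.09, Ifih1 -0.18 and Parp14 -0.08. Without the 6 lesions above 40% mt-Rnr2, which leaves NK2 as the only NK mouse, they were Stat2 -0.48, Irf1 0.13, Irf7 -0.29, Gbp6 1.38, Ifit1 -0.41, Usp18 -0.01, Bst2 -0.31, Ifi35 -0.13, Zbp1 -0.33, Ifih1 -0.39 and Parp14 -0.18. In limma-voom on lesions they were Stat2 -0.21, Irf7 -0.11, Gbp6 0.40, Socs1 -0.13, Ifit1 -0.58, Ifit3 -0.20, Mx1 -0.79, Ifi44 -0.33, Zbp1 -0.11, Ifih1 -0.01 and Parp14 -0.12. In the deposited normalized table they were Gbp6 0.03, Irgm2 0.19, Socs1 -0.18 and Mx1 -0.40. The cause of these differences was not tested.

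With a mouse or a lesion left out, the log2 fold changes of the members that changed sign ranged as follows: Stat2 -0.58 to 1.35, Irf1 -0.33 to 0.07, Irf7 -0.27 to 1.80, Irf8 -0.42 to 0.03, Irf9 -0.52 to 0.12, Gbp5 -1.40 to 2.46, Gbp6 -1.80 to 1.23, Gbp7 -0.01 to 0.83, Irgm2 -0.40 to 0.32, Socs1 -0.54 to 0.22, Ifit1 -0.44 to 0.61, Ifit2 -0.35 to 0.66, Ifit3 -0.50 to 1.34, Mx1 -0.57 to 0.79, Mx2 -0.13 to 2.20, Rsad2 -1.17 to 0.58, Bst2 -0.45 to 1.16, Xaf1 -0.41 to 0.15, Ifi44 -0.24 to 0.94, Ifi35 -0.06 to 0.54, Zbp1 -0.26 to 0.60, Ifih1 -0.32 to 1.01 and Parp14 -0.27 to 0.69.

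Mouse numbers are shared by the groups (1 and 2), and the labels do not say that a number marks a pair. Deviations of same-numbered mice from their group means correlated at 0.0957 (NK1 with KO1) and 0.289 (NK2 with KO2). With only 2 NK mice, their deviations are exact opposites, so these values cannot decide whether the numbers mark a pairing. The main fit took no pairing because the labels name none. A fit with the replicate block called 7 genes in all and 0 members, gave medians of 0.32 for gamma-type and 0.12 for type I genes, and changed the sign of Gbp6 (0.76), Ifit1 (-0.40), Ifit2 (-0.17), Ifi44 (-0.15) and Zbp1 (-0.12). Low counts limit Gbp5, Ido1 and the ligand genes, and NK1-3, at 2964242 counts, is the shallowest library. Its low values of Gbp2, Irf1 and Ifit2 rest on 1, 7 and 4 counts.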
